A study of Mus musculus with 8 samples.

Results

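The lymphocyte marker genes examined here were Ptprc, Cd3e, Cd3g, Cd4, Cd8a, Cd79a, Cd79b, Ms4a1 and Nkg7. Probes were assigned to them when the scanner files gave a RefSeq transcript of the gene as the probe's systematic name, and each gene was represented by its brightest probe. The 9 genes were covered by 12 of the 55681 noncontrol probes of the array, with 1 probe for each of 6 genes and a further probe for Cd4, Cd8a and Nkg7. They are 9 of the 20141 genes to which a current symbol could be attached.

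The study addressed the changes of cardiac gene expression after myocardial infarction (MI). MI mice (n = 4) had a permanent ligation of the anterior interventricular artery, and sham-operated mice (n = 4) had the surgery without ligation. All were adult male mice of the genetic background C57BL\6, all were anesthetized with isoflurane and opened by thoracotomy, and all underwent a positron emission tomography exam with injected FDG (a labeled glucose analog) after Acipimox. The ventricles were taken 24 hours after surgery, so infarcted and remote muscle were homogenized together, and total RNA of each mouse was labeled with Cy3 and hybridized to 1 array.

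Lymphocytes are recognized by the proteins of their antigen receptors and co-receptors. T cells carry the CD3 chains (Cd3e, Cd3g) beside the T-cell receptor and either CD4 or CD8 as co-receptor, B cells carry CD79A and CD79B beside membrane immunoglobulin together with CD20 (Ms4a1), and Nkg7 encodes a granule protein of natural killer and cytotoxic T cells. Ptprc encodes CD45, a tyrosine phosphatase that acts on Src family kinases in lymphocytes but is present on nearly all leukocytes, neutrophils and monocytes included.

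All 8 mice were on a single slide with a single scan, and each of its 2 rows held 2 MI and 2 sham-operated mice. The scanner software flagged 58.6% to 66.4% of an array's noncontrol spots as well above background. All 8 cardiomyocyte genes examined, such as Actc1 (cardiac actin) and Myl2 (ventricular myosin light chain), were well above background on every array, and none of them passed the test between groups. Signals were placed on a spike-in log2 scale, called normalized log2 signal below, and a probe was tested if it had that flag on 4 or more arrays. A probe was called when MI and sham-operated mice differed by more than 2-fold with an adjusted p under 0.05 (limma with Benjamini-Hochberg adjustment over 34038 probes).

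Ptprc was the only lymphocyte marker gene called, being higher in MI mice. Cd79b was higher in MI mice by less than 2-fold with an adjusted p under 0.05, so 2 of the 7 tested genes passed at any fold. Cd3e, Cd4, Cd79a, Ms4a1 and Nkg7 did not pass, while Cd3g and Cd8a were too close to background to be tested. Among all tested probes, 3.48% were called (3.07% higher and 0.405% lower in MI mice), and 7.61% passed at any fold (6.3% higher and 1.31% lower). In bulk ventricular RNA, a change in the number of cells of a type and a change in RNA per cell cannot be told apart.

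**Figure D1:**
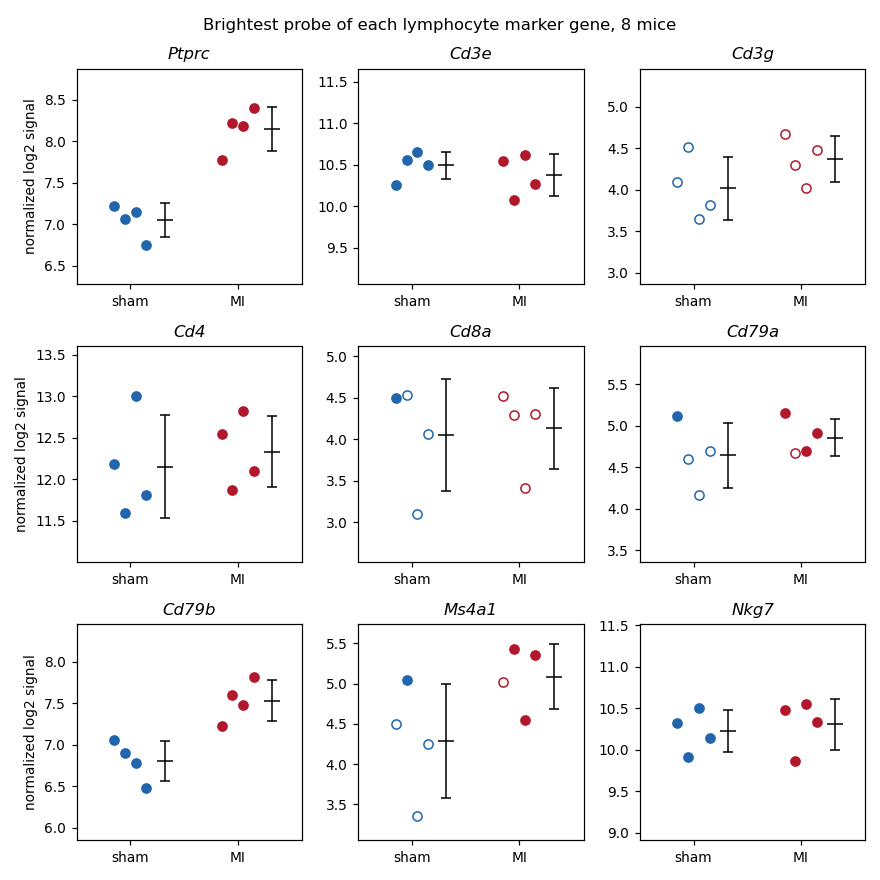
Normalized log2 signal (vertical axes, each panel with its own range) of the brightest probe of each of the 9 lymphocyte marker genes in the 4 sham-operated mice (blue) and 4 MI mice (red). Filled points are arrays on which the probe was well above background, open points are arrays on which it was not, and bars give the mean ± SD of each group. The groups are apart for Ptprc and Cd79b, and overlap or lie near background for the others.

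The Ptprc probe was well above background on all 8 arrays. Its normalized log2 signal was 7.77, 8.22, 8.18 and 8.40 in MI mice 1 to 4, and 7.22, 7.06, 7.15 and 6.75 in sham-operated mice 1 to 4. The groups did not overlap, the MI mice being higher, with MI mouse 4 the highest and sham-operated mouse 4 the lowest. The group means were 8.14 ± 0.27 and 7.05 ± 0.20 (SD, n = 4 each). The log2 fold change was 1.10 (SE 0.21, adjusted p = 0.000906 by limma), which is a 2.14-fold difference with a 95% confidence interval of 1.58 to 2.89. The exact two-sided permutation test over the 8 mice gave p = 0.0286, the smallest value that 4 mice against 4 allow. Of all tested probes, 11.2% had groups that did not overlap and 8.46% had their lowest MI value above their highest sham value. Within the slide rows, the log2 difference in Ptprc was 0.86 in the first and 1.34 in the second. The log2 fold change stayed between 1.00 and 1.22 when each mouse was left out in turn, and Ptprc passed the adjusted p each time. It fell under 2-fold with a refitted spike-in transformation, which gave a log2 fold change of 0.55.

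**Figure D2:**
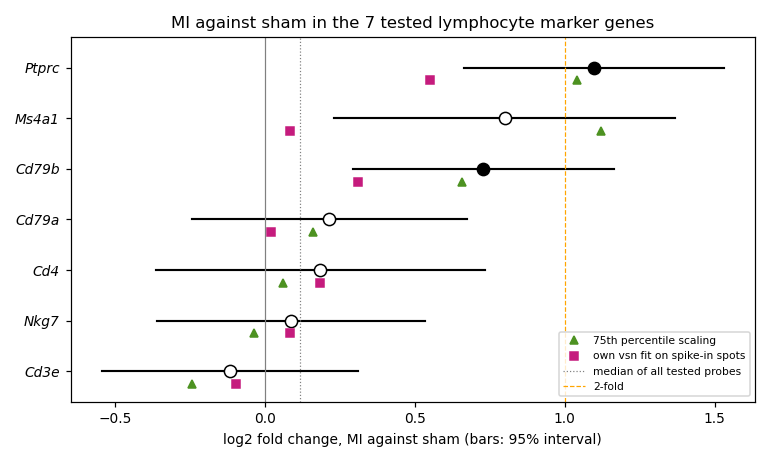
Log2 fold change of MI against sham-operated mice (horizontal axis) for the 7 tested lymphocyte marker genes, with 95% confidence intervals (lines, not adjusted for multiple testing), filled circles where the adjusted p was under 0.05, and 2 alternative scalings (triangles, 75th percentile; squares, refitted spike-in vsn). The intervals of Ptprc, Ms4a1 and Cd79b lie to the right of the median of all tested probes (dotted, 0.12), and those of Cd79a, Cd4, Nkg7 and Cd3e include 0.

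Of the B-cell genes, Cd79b passed the adjusted p and Cd79a and Ms4a1 did not. Cd79b encodes a signalling chain of the B-cell receptor, and its probe was well above background on all 8 arrays. Its normalized log2 signal was 7.23, 7.60, 7.48 and 7.82 in MI mice 1 to 4, and 7.05, 6.90, 6.78 and 6.48 in sham-operated mice 1 to 4. The MI mice all lay above the sham-operated mice on this scale, although MI mouse 1 and sham-operated mouse 1 were close to each other. On the processed signals before normalization the groups overlapped, with 128.8 in MI mouse 1 and 142.6 in sham-operated mouse 1. MI mouse 4 was again the highest and sham-operated mouse 4 the lowest, and the MI mice had the same order as for Ptprc.

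The mean normalized log2 signal of Cd79b was 7.53 ± 0.25 in MI and 6.80 ± 0.24 in sham-operated mice (SD, n = 4 each). This was a 1.66-fold difference (log2 fold change 0.73, SE 0.21, adjusted p = 0.0321 by limma). The exact permutation test gave p = 0.0286, and the slide rows gave log2 differences of 0.44 and 1.02. The Cd79b result depended on the setting: it passed 0.05 under 4 of 11 other settings, and the adjusted p was 0.0863 with 75th percentile scaling. It passed in 4 of the 8 repeats that each left out 1 mouse. The adjusted p was 0.0596 without MI mouse 3, 0.118 without MI mouse 4, 0.0608 without sham-operated mouse 3 and 0.163 without sham-operated mouse 4.

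Cd79a encodes the partner chain with which CD79B forms its heterodimer. The Cd79a probe was well above background on 3 MI arrays and 1 sham array, so it was retained mainly through the MI group. Its normalized log2 signal was 5.15, 4.67, 4.70 and 4.91 in MI mice 1 to 4, and 5.12, 4.60, 4.16 and 4.70 in sham-operated mice 1 to 4. The groups overlapped, sham-operated mouse 1 being close to the highest MI mouse. The log2 fold change was 0.21 (95% confidence interval -0.24 to 0.67, adjusted p = 0.657 by limma). Its interval and that of Cd79b (0.29 to 1.16) overlapped, and the difference between both chains was not tested.

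Ms4a1 encodes CD20, a membrane protein of B cells, and its probe was likewise well above background on 3 MI arrays and 1 sham array. The normalized log2 signal was 5.02, 5.43, 4.54 and 5.35 in MI mice 1 to 4, and 4.50, 5.04, 3.36 and 4.25 in sham-operated mice 1 to 4. MI mice 1 and 3 lay below sham-operated mouse 2, and sham-operated mouse 3 was the lowest by a wide margin. Ms4a1 had a log2 fold change of 0.80 (95% confidence interval 0.23 to 1.37 before adjustment, adjusted p = 0.0796 by limma). The exact permutation test over mice gave p = 0.0857. Without sham-operated mouse 2 the log2 fold change was 1.05 with an adjusted p of 0.00855, without MI mouse 3 it was 0.98 with an adjusted p of 0.0160, and without sham-operated mouse 3 it was 0.49 with an adjusted p of 0.316. The processed signals were 15.1 to 35.1 in MI mice and 4.55 to 15.1 in sham-operated mice, of the same size as the additive constants of the transformation (3.16 to 19.6). The log2 fold change was 1.25 without those constants (adjusted p = 0.0182 by limma), but 0.08 with the refitted vsn (adjusted p = 0.544). With the deposited normalized values it was 0.07. Those values lack arrays not above background, which left 3 MI arrays and 1 sham array for Ms4a1. In the RefSeq annotation (GRCm38.p6, chromosome 19) Ms4a1 overlaps 4930526L06Rik, and no information on strand was used to assign its signal.

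Among the T-cell genes, the probes of Cd3e and Cd4 were well above background on all arrays and those of Cd3g and Cd8a lay near it. Cd3e encodes the epsilon chain of CD3, and its processed signal was 1438, 1341, 1394 and 1419 in MI mice 1 to 4 and 1448, 1496, 1207 and 1254 in sham-operated mice 1 to 4. The groups overlapped throughout. Between groups the Cd3e probe had a log2 fold change of -0.12 (95% confidence interval -0.55 to 0.31, adjusted p = 0.814 by limma). For this probe a 2-fold difference in either direction lay outside the interval. Cd3g encodes the gamma chain of the same complex, and its probe was not well above background on any array, with processed signals of 5.28 to 9.75 in MI mice and 2.35 to 6.24 in sham-operated mice. No fold change was computed for Cd3g. In the RefSeq annotation Cd3g, Cd3d and Cd3e are neighbours on chromosome 9.

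Cd4 encodes the co-receptor of helper T cells and had 2 probes. On the brightest, the processed signal was 5801, 4707, 6448 and 5102 in MI mice 1 to 4 and 5529.8, 3081, 6197 and 3140.2 in sham-operated mice 1 to 4. Before normalization, sham-operated mice 2 and 4 were lower than the rest. After normalization the sham-operated mice held both the lowest log2 signal (11.60, mouse 2) and the highest (13.01, mouse 3). The log2 fold change was 0.18 (95% confidence interval -0.37 to 0.73, adjusted p = 0.769 by limma). The further Cd4 probe was printed in 10 spots per array, all 80 of which were well above background over the 8 arrays. It gave processed signals of 31.4 to 48.5 in MI mice and 25.8 to 42.3 in sham-operated mice. This probe had a log2 fold change of 0.13 (adjusted p = 0.792 by limma). Neither Cd4 probe passed the test.

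Cd8a encodes the alpha chain of the CD8 co-receptor of cytotoxic T cells. Its brightest probe was printed in 10 spots per array, and 5 of the 80 spots over the 8 arrays were well above background. Once outlier spots had been left out, the probe was well above background on 1 array, that of sham-operated mouse 1, with processed signals of 5.13 to 6.09 in MI mice and 3.34 to 11.3 in sham-operated mice. The further Cd8a probe was not well above background on any array. Neither was tested.

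Nkg7 encodes a granule protein of cytotoxic lymphocytes, and its brightest probe was well above background on all 8 arrays. The processed signal was 1372, 1165, 1330.4 and 1489.8 in MI mice 1 to 4 and 1516, 948.1, 1092 and 976.0 in sham-operated mice 1 to 4. Before normalization, sham-operated mouse 1 was the highest and the other sham-operated mice were the lowest. On the normalized log2 scale MI mouse 3 was the highest (10.55) and MI mouse 2 the lowest (9.87), and the groups overlapped on both scales. Its log2 fold change was 0.09 (95% confidence interval -0.36 to 0.53, adjusted p = 0.874 by limma). It was -0.04 with 75th percentile scaling. The further Nkg7 probe was well above background on 2 MI and 2 sham arrays and gave a log2 fold change of -0.16 (adjusted p = 0.810 by limma), with processed signals of 9.29 to 17.3 in MI mice and 6.36 to 38.8 in sham-operated mice.

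**Figure D3:**
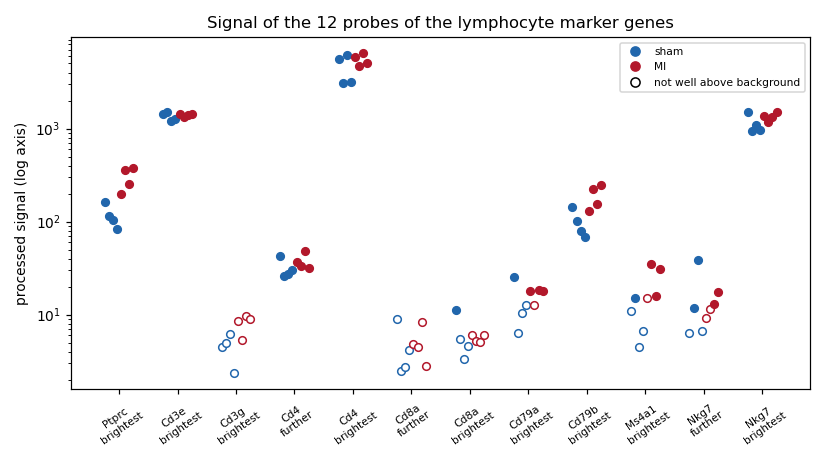
Processed signal (vertical log axis) of each of the 12 probes of the lymphocyte marker genes in the 8 mice, with sham-operated mice in blue, MI mice in red, and open points where the probe was not well above background. The further probes of Cd4 and Nkg7 lie far under the brightest probes of the same genes, and both Cd8a probes and the Cd3g probe lie near background.

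The choice of probe set the apparent level of Cd4 and Nkg7. The mean processed signal of the brightest Cd4 probe was 144.9 times that of the further probe, and the ratio ranged from 104.0 to 224.6 over the arrays. For Nkg7 the ratio of means was 86.1, with a range of 28.2 to 238.3. Among the 5368 genes with several probes on the array, the median ratio of the brightest to the dimmest probe was 4.92, and 5.51% of genes had a ratio at least as large as that of Cd4 and 7.88% at least as large as that of Nkg7. Array signals of different probes are not calibrated to each other, so no order of level between genes is given as a result, and brightness below only set which genes are named. The bright Cd3e, Cd4 and Nkg7 probes stood beside Cd3g and Cd8a probes near background, so the markers of these cell types were not all measurable in the same samples. Which probe of Cd4 or Nkg7 measures the transcript could not be told without probe sequences, and Cd3e had no further probe. The fold changes given for these 3 genes are therefore those of the probes.

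The lymphocyte marker genes were next set beside longer gene lists, each gene again by its brightest probe. The median log2 fold change was 0.21 for the 7 tested lymphocyte marker genes and 0.12 for all tested probes. The counts of each list below stand beside 3.07% of all tested probes called higher and 6.3% higher at any fold. Of 25 further T-cell genes 18 were tested, none was called, 3 were higher at any fold and the median of the log2 fold changes was 0.19. The brightest were Thy1, a surface glycoprotein also present on other cell types, at a log2 fold change of 0.06, and Cd28, a costimulatory receptor, at -0.34, neither of which passed. The 3 that rose below 2-fold are named after their values were seen. Cd3d encodes the delta chain of CD3, and its processed signals were 52.7 to 67.7 in MI mice and 18.2 to 36.3 in sham-operated mice (log2 fold change 0.90, adjusted p = 0.00598 by limma). Lck encodes a Src family kinase that is a CD45 substrate (0.65, adjusted p = 0.0429), and Il7r encodes the interleukin 7 receptor (0.77, adjusted p = 0.0369). Cd3d passed in each repeat that left out 1 mouse. Lck passed in 1 and Il7r in 4 of these 8 repeats, and Il7r did not pass with 75th percentile scaling (adjusted p = 0.0860). Cd3d passed under 8 of 11 other settings, and its log2 fold change was 0.18 to 1.12 among them. With the refitted vsn none of the 18 tested T-cell genes passed at any fold. Without the additive constants of the transformation 2 of them were called higher.

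Among 20 further B-cell genes 15 were tested, none was called and 2 were higher at any fold, and their median log2 fold change was 0.20. The brightest, Cd22 (an inhibitory co-receptor) and Ebf1 (a transcription factor of B-cell development), had log2 fold changes of 0.13 and -0.35 and did not pass. Those that rose below 2-fold, named after their values were seen, were Fcmr, the IgM Fc receptor (0.93, adjusted p = 0.0184 by limma), and Pou2af1, a transcriptional coactivator (0.77, adjusted p = 0.0243). Fcmr passed in 6 and Pou2af1 in 3 of the 8 repeats that left out 1 mouse, and neither passed with 75th percentile scaling. With the refitted vsn no gene of this list passed at any fold. Without the additive constants 1 was called higher, and leaving out each mouse called 0 to 1. Pou2af1 was well above background on the 4 MI arrays and on 1 sham array, so it was retained through the MI group.

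Of 20 natural killer and cytotoxic genes other than Nkg7, 10 were tested and 7 were not well above background on any array. None was called, and the median log2 fold change was 0.19. Gzmm, a granule protease, and Cd244a, a receptor of the SLAM family, were the brightest and had log2 fold changes of -0.39 and -0.03, without passing. Ccl5, a chemokine, was the only gene of this list that rose (0.94, adjusted p = 0.00276 by limma, named after its value was seen), and it passed in each of the 8 repeats that left out 1 mouse. With 75th percentile scaling, which moved the median of all tested probes from 0.12 to -0.02, Cd28, Ebf1 and Gzmm were lower in MI mice with adjusted p of 0.0294, 0.0369 and 0.0363 by limma. Under that scaling the signalling kinase gene Prkcq (adjusted p = 0.0271) and the cardiomyocyte gene Pln (adjusted p = 0.00643) were lower too.

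Genes of antigen receptor signalling included kinases on which CD45 acts. All 16 were tested and none was called, whereas 5 were higher at any fold, and their median log2 fold change was 0.38. Syk, a kinase downstream of immune receptors, was the brightest and rose by 0.93 on the log2 scale (adjusted p = 0.00808 by limma), and Plcg2, a phospholipase, was next at 0.23 and did not pass. Lck, Zap70 and Lat are counted here and in the T-cell list, and Blnk is counted here and in the B-cell list. Besides Syk and Lck, those that rose, named after their values were seen, were Btk, Ptpn22 and Lcp2. Their adjusted p were 0.00337, 0.0307 and 0.00641 by limma. Btk and Ptpn22 rose by 0.93 and 0.77 on the log2 scale, but Ptpn22 did not pass with 75th percentile scaling (adjusted p = 0.124) and passed in 4 of the 8 repeats that left out 1 mouse. Lcp2, an adaptor protein, was well above background on the 4 MI arrays and on no sham array, so it was retained through the MI group and has only a bound, at least 1.86-fold higher in MI mice. The median of the list was also 0.38 with Lcp2 at its bound.

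Among 10 genes of lymphocyte homing and egress, 9 were tested and 3 were called, all higher in MI mice. Among them, the chemokine receptor genes Cxcr4 and Ccr7 rose by 1.18 and 1.14 on the log2 scale (adjusted p = 0.000531 and 0.000770 by limma). With the refitted vsn 1 gene of the list was called, and Cxcr4 and Ccr7 were under 2-fold at 0.50 and 0.54. Klf2, a transcription factor that is also expressed in endothelium, fell below 2-fold (-0.94, adjusted p = 0.0327, named after its value was seen) and did not pass with 75th percentile scaling (adjusted p = 0.0749). CXCR4 is also carried by neutrophils and monocytes.

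Genes shared by most leukocytes were set beside Ptprc. All 16 were tested, 8 were called higher, 12 were higher at any fold and the median log2 fold change was 1.00. Among the 12, Ikzf1 was well above background on the 4 MI arrays and on 1 sham array, so it was retained through the MI group. The largest differences were in Selplg, the selectin ligand PSGL-1 (2.00), Cd53, a tetraspanin (1.71), Coro1a, an actin regulator (1.63), and Rac2, a GTPase (1.58). At any fold 6 passed with the methods' t-test and 7 without a detection filter, and the median was 0.57 with the refitted vsn. The CD45-associated protein gene Ptprcap did not pass, at a log2 fold change of 0.27.

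Markers of other leukocytes differed between the same groups. Of 13 neutrophil genes, all tested, 9 were called higher in MI mice and the median log2 fold change was 2.77, led by Retnlg (4.24), Cxcr2 (3.31), Il1r2 (3.26) and S100a8 (3.02). Ngp, also called, was well above background on no sham array and has only a bound (at least 5.30-fold higher), with which the median was 2.47. The median was 1.03 with the refitted vsn. The summed normalized signal of this list was 256326 to 374710.0 in MI mice and 77153 to 122074 in sham-operated mice, and each gene of the list was well above background on 4 or more arrays. Of 11 monocyte and macrophage genes matched to a probe, 2 were called higher, Cd14 (2.25) and Ccr2 (1.15), and the median was 0.17. Cd68 and Ly6c2 were not matched, and the paper reports CD68 as higher in MI mice on its microarrays. The summed normalized signals of 40037 to 60421 in MI and 33802 to 64503 in sham-operated mice overlapped. Such sums mostly follow the brightest probes, here that of Itgam (log2 fold change 0.14), and do not describe each gene. A further Itgam probe was called higher (1.71). The part of neutrophils, monocytes and macrophages in the Ptprc and Cd79b differences was not tested. Nor was it tested for the signalling, homing and cytotoxic genes that rose, such as Syk, Btk, Lcp2 and Ccl5.

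**Figure D4:**
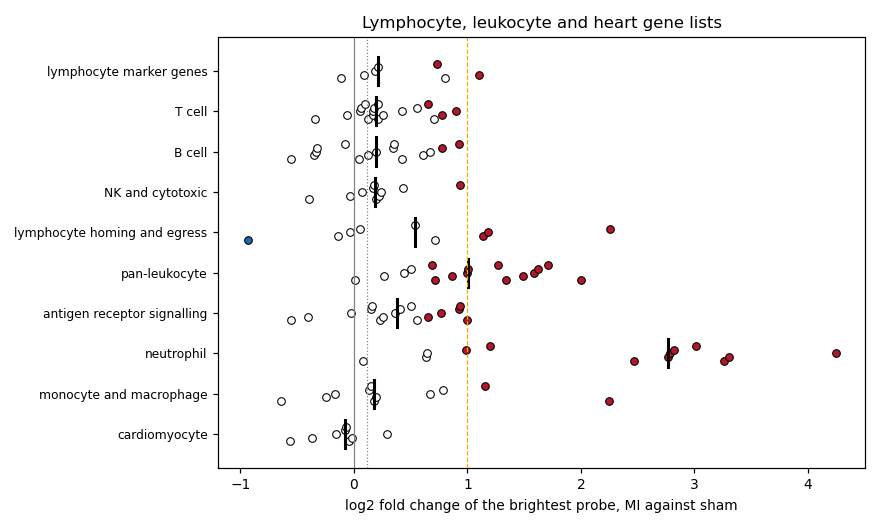
Log2 fold change of MI against sham-operated mice (horizontal axis) for each tested gene of 10 lists, with red points for genes higher and blue points for genes lower at an adjusted p under 0.05, and a black bar at the median of each list. The dotted line is the median of all tested probes (0.12) and the dashed line a 2-fold difference; the medians of the T-cell, B-cell and cytotoxic lists (0.19 to 0.20) lie near the dotted line, and those of the pan-leukocyte (1.00) and neutrophil lists (2.77, or 2.47 with Ngp at its bound) lie to the right.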

How the data were processed

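The scanner files hold Agilent Feature Extraction 11.0.1.1 output, in which the deposited processed signal is a background-corrected 1-color intensity. The authors also deposited normalized log2 values, made with limma and vsn on spike-in probes after removal of spots not above background. The additive constant and scale of each array were recovered from those log2 values and applied to all processed signals, because the constants of a refitted vsn (165.9 to 256.3) exceeded most signals of the lymphocyte probes. After outlier spots were left out, each probe's spots were averaged, and the 34038 noncontrol probes flagged well above background on 4 or more arrays were kept. MI and sham-operated mice were compared with limma 3.58.1 in R 4.3.3 without covariates, with Benjamini-Hochberg adjustment over all retained probes, and with exact permutation over mice. Brightest means the highest mean normalized log2 signal. Symbols came from RefSeq (GRCm38.p6); Cd68 and Ly6c2 were not matched. A bound (at least N-fold) is the mean of the measured group over the higher of each array's lowest signal well above background and the probe's own. From each list up to 4 called genes with the largest change are named, or the 2 brightest where fewer than 2 were called. The values of 1 called homing gene are not reported here. The genes and lists were chosen with earlier results of these data known. On simulated data with 33865 probes and independent normal noise, 100 probes were given a 2-fold and 100 a 4-fold change. Of these, 51% and 95% passed an adjusted p under 0.05 at any fold. So did 6 unchanged probes. In the data a larger share of probes passed (7.61%), which changes the adjustment, so these recovery shares may not carry over. Arrays give no counts; their number limits precision. Each array is 1 mouse.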

Additional observations from a re-analysis of the deposited data

How the results depend on the processing

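Under the main setting 1184 probes and 1 lymphocyte marker gene (Ptprc) were called. With the refitted vsn 333 probes and 0 lymphocyte marker genes were called, and with normexp on median signals followed by quantile normalization 537 and 0. An ordinary t-test with Benjamini-Hochberg adjustment called 578 probes. It is not the permutation-based Significance Analysis of Microarrays that the paper used. The spike-in shift without additive constant called 2 lymphocyte marker genes (Ptprc and Ms4a1, whose log2 fold change was 1.25), and leaving out each mouse called 1 to 2. At any fold, 2 lymphocyte marker genes passed (Ptprc and Cd79b). The count was 1 with the refitted vsn, 75th percentile scaling, quantile normalization, normexp, no detection filter or the ordinary t-test. It was 1 to 3 when each mouse was left out. The spike-in shift without additive constant also gave 2, but with Ms4a1 in place of Cd79b (adjusted p = 0.0655 by limma). Ptprc passed the adjusted p under all 11 other settings and was under 2-fold with the refitted vsn (0.55) and normexp (0.83). The log2 fold change of Cd4 was -0.001 without sham-operated mouse 2 (-0.001 to 0.47 over the mice left out). That of Cd79a was -0.20 with the deposited normalized values, which lack arrays not above background. They left 3 MI arrays and 1 sham array for Cd79a. Nkg7 was -0.038 with 75th percentile scaling, -0.010 with quantile normalization, -0.019 with normexp, -0.16 on the further probe, -0.0345 as the mean of its probes and -0.0158 to 0.23 over the mice left out, the negative value being without sham-operated mouse 2. Called probes were higher in MI mice in 88.3% of cases, in 72.2% with 75th percentile scaling and in 69.0% with quantile normalization. List medians fell with the refitted vsn, to 0.05 (T cell), 0.05 (B cell), 0.04 (cytotoxic), 0.21 (homing), 0.11 (signalling), 0.57 (pan-leukocyte) and 1.03 (neutrophil), where the median of all probes was 0.03. When any probe of a gene counted in place of the brightest, an alternative added after the values were seen, 4 homing, 1 signalling and 3 monocyte and macrophage genes were called, in place of 3, 0 and 2. No share over all genes was computed for that way of counting. By the brightest probe and without the additive constants, 2 signalling and 0 cytotoxic genes were called higher. Leaving out each mouse called 0 to 2 signalling and 0 to 1 cytotoxic genes. Apart from the arrays missing from the deposited values, the cause of the differences between settings was not tested.

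The labels give both groups the replicate numbers 1 to 4. Deviations of mice with the same number correlated at 0.238, 0.292, 0.143 and 0.0114, and 2 of 4 numbers correlated best with their own, so the numbers were not taken as pairs. The replicate block called 1155 probes and moved the count at any fold from 2590.0 to 4895. With the block the adjusted p of Ms4a1 was 0.0208 and those of Ptprc and Cd79b were 0.00887 and 0.0407. Signals near background limit Cd79a, Ms4a1, the dim Nkg7 probe, Pou2af1, Ikzf1, Lcp2 and Ngp.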
